A study of Mus musculus with 6 samples.

Results

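This account covers the genes that make, break down and bind hyaluronan in B16F10 cells: the hyaluronidases Hyal1, Hyal2 and Hyal3, the hyaluronan synthases Has1, Has2 and Has3, and the hyaluronan receptors Cd44 and Hmmr. The family was chosen by the FPKM values of Hyal1, which were higher in the treated libraries than in the PBS libraries, so the difference in Hyal1 is given as a description with no test. Of the 8, 6 have a row among the 15726 genes of the deposited table, and Has1 and Has2 were not analysed here. Only 4 of the 6, namely Hyal1, Hyal2, Cd44 and Hmmr, reached a mean of 1 FPKM (fragments or reads scaled to gene length and library depth) in either group and entered the test, while Hyal3 and Has3 stayed under it.

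B16F10 is an established mouse melanoma line. Cells in 3 libraries had spent 8 h with rPPAA18C6@Dox (50 μg/mL) in fresh medium, and cells in the 3 control libraries had spent 8 h with PBS. The series title names a potassium ionophore nanoplatform that responds to reactive oxygen species, and the labels give the preparation only by its code. No samples with a carrier or a drug alone were analysed here, so the components of the preparation cannot be told apart. Nothing in the labels ties a library to its own culture. Each p-value is therefore set against the variation among these 6 libraries, and that variation may be technical only.

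Each library held between 36380462 and 37067116 recovered reads. All 7 melanocyte markers looked at were expressed. Their summed level was 6145 to 6233 FPKM in the PBS libraries and 7198 to 7228 FPKM in the rPPAA18C6@Dox libraries. Of the 7, 5 passed the test as higher, where 4.66% of all tested genes did. Immune markers (3 of 8 with a row) summed to at most 2.63 FPKM and fibroblast markers (5 of 8 with a row) to at most 4.35 FPKM in any library. The endothelial and epithelial markers (3 of 8 with a row) summed to 3.07 to 3.38 FPKM with PBS and 4.95 to 5.13 FPKM with rPPAA18C6@Dox. Of the 2 tested, Vwf rose (0.79 on the log2 scale, limma adjusted p = 5.91e-05) and Pecam1 did not pass (-0.01, adjusted p = 0.920). Cd68, the 1 immune marker tested, had 56 to 79 reads per library and an estimate of 0.23 (adjusted p = 0.0311), a call lost in 8 of 12 alternatives, voom included (adjusted p up to 0.165). The defining markers Ptprc, Cdh5 and Epcam were not analysed here. The part of these markers in the results below was not tested.

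Hyaluronan is a long, unsulfated chain of alternating glucuronic acid and N-acetylglucosamine that surrounds many cells, tumour cells included. Synthases in the plasma membrane (Has1, Has2, Has3) build it from UDP-sugars and push it out of the cell. Hyal2 at the cell surface and Hyal1 in the lysosome cut it, and CD44 and RHAMM, the product of Hmmr, bind it. RHAMM is also a protein of the mitotic spindle.

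Upstream sequence is shown for Hyal1, the gene for which the set was taken, and for Hmmr, the member with a known cell cycle role. Both windows come from RefSeq on GRCm38.p6 and run from 250 bases before the annotated start to 30 after it. RefSeq has such a window for 6 of the 8 genes. In the Hyal1 window, chr9:107576700-107576979 on the + strand, capitals mark matches to the GC box GGGCGG and the CCAAT box CCAAT on either strand; both GC box matches overlap by 1 base.
Hyal1: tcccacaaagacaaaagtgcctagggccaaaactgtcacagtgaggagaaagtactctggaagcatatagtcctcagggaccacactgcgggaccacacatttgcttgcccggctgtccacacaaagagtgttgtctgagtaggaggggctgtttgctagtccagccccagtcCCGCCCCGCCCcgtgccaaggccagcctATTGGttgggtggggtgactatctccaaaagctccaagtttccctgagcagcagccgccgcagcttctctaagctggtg
In the Hmmr window, chr11:40733408-40733687 on the - strand, capitals mark CCAAT and the cell cycle homology element TTTGAA on either strand; a GC box that overlaps the third CCAAT match is left in lower case.
Hmmr: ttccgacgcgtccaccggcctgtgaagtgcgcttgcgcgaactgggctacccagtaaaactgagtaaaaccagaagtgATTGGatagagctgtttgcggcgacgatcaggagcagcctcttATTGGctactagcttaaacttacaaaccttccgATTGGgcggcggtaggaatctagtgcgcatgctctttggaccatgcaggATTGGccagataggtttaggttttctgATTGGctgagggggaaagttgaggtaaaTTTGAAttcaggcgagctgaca

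Hmmr held 5 CCAAT matches, 1 GC box match and 1 TTTGAA match, the last at base 9, past the annotated start. Hyal1 held 1 CCAAT and 2 GC box matches, and the windows of Hyal2 and Cd44 held 1 GC box match each. Among all 32851 RefSeq windows of this length, 36.1% held a CCAAT, 34.7% a GGGCGG and 17.2% a TTTGAA. The E-boxes CACGTG (6.79% of windows) and CATGTG (13.4%), the AP-1 site TGANTCA (7.46%) and the cAMP response element TGACGTCA (1.74%) had no match in either printed window. These matches describe letters and are not evidence of binding.

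Hyal1, the lysosomal hyaluronidase, stood at 6.78, 8.42 and 7.89 FPKM in the PBS libraries and at 13.6, 12.7 and 12.5 FPKM in the rPPAA18C6@Dox libraries. Every treated library lay above every PBS library, and PBS replicate 1 was the lowest of the 6. The means were 7.70 ± 0.836 and 12.9 ± 0.577 FPKM (SD, n = 3 each), a ratio of 1.68, with 949 to 1169 reads per PBS library and 1730 to 1878 per treated library. On the log2(FPKM + 1) scale, the difference was 0.68 (SE 0.0647), the 11th largest rise in estimate among 10680 genes tested. That scale understates fold changes of low genes. It was used for all fold changes here except in the alternatives with voom or another pseudocount. In bulk RNA, more transcript per cell and a changed mix of cells cannot be told apart.

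Hyal2, which cuts long hyaluronan at the cell surface, had 12.3, 11.04 and 10.3 FPKM with PBS and 11.5, 11.1 and 11.6 FPKM with rPPAA18C6@Dox. The treated libraries fell inside the range of the PBS libraries. Its log2 fold change was 0.03 (SE 0.0550, limma adjusted p = 0.802), with a 95% interval from -0.0958 to 0.149, that is, from -6.43% to 10.9%.

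The levels of these neighbouring hyaluronidases per unit of length changed order. That order depends on the gene lengths behind the FPKM values. By reads, Hyal1 was already above Hyal2 in PBS replicates 2 (1169 against 948) and 3 (1084 against 873). In PBS replicate 1 it was below (949 against 1064). Hyal1 FPKM divided by Hyal2 FPKM was 0.552, 0.763 and 0.768 in the PBS libraries and 1.18, 1.15 and 1.08 in the treated libraries. The shift follows from the difference in Hyal1 for which the set was taken and is not a separate result.

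Hyal3, a family member close to Hyal1 on the chromosome, was barely detected. It had 11, 8 and 11 reads in the PBS libraries (0.161, 0.118 and 0.164 FPKM) and 26, 19 and 10 in the treated libraries (0.385, 0.2801 and 0.148 FPKM). Treated replicate 3 lay inside the PBS range, so the groups overlapped. With no filter on low values, limma gave a log2 fold change of 0.14 (SE 0.0654, adjusted p = 0.284), and the authors' deposited table lists a p-value of 0.0982.

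**Figure D1:**
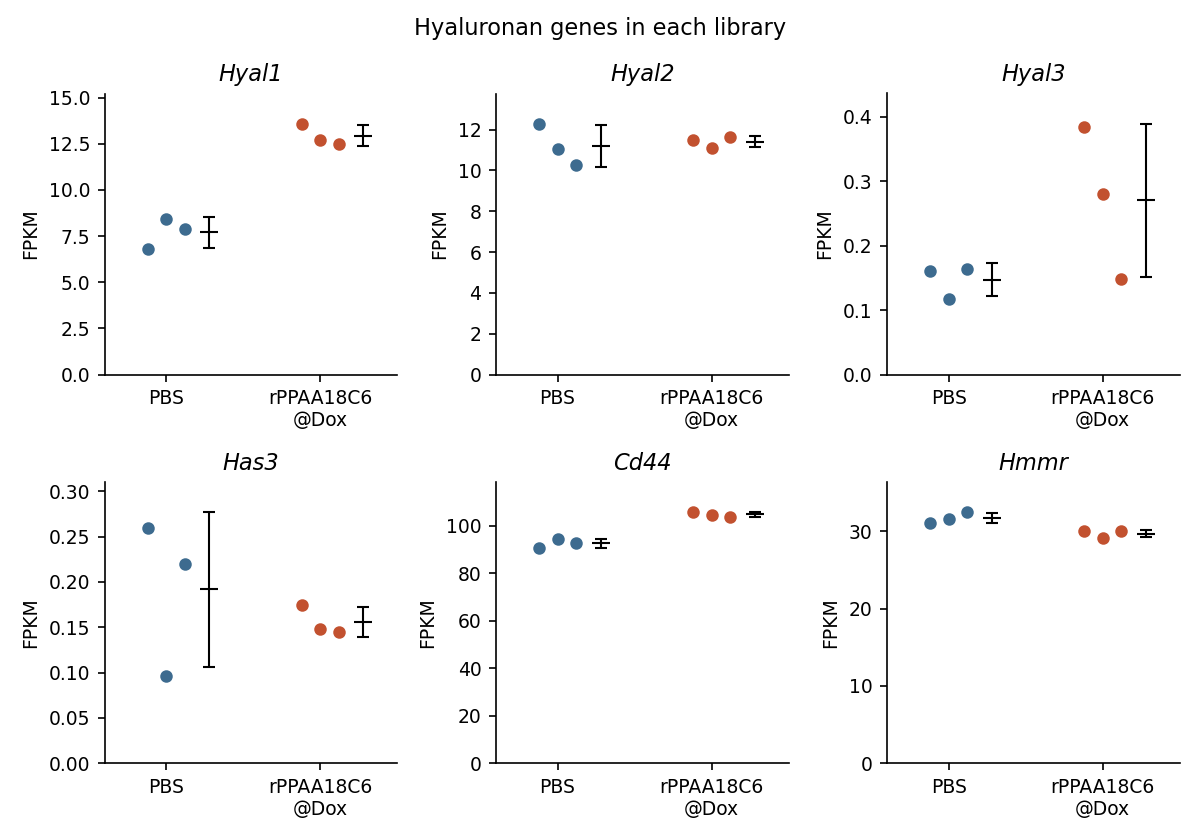
FPKM (vertical axis, from 0) of the 6 genes with a row, for 3 PBS and 3 rPPAA18C6@Dox libraries; points are libraries, ordered by replicate number, and bars give the mean ± SD. Hyal1 lies at 12.5 to 13.6 in treated libraries against 6.78 to 8.42 with PBS, Cd44 and Hmmr separate by group with smaller gaps, and Hyal2, Hyal3 and Has3 overlap.

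Hyal1 shares sequence with its neighbours. In GENCODE vM21 (GRCm38), Hyal1 lies at chr9:107576927-107581710, Naa80 at chr9:107578887-107584050 and Hyal3 at chr9:107580818-107587359, all on the + strand. Naa80 encodes the N-terminal acetyltransferase of actin. Its annotated exons share 1920 bases with those of Hyal1, which is 50.8% of the Hyal1 exons and 60.9% of the Naa80 exons. In RefSeq Naa80 starts later. With its GENCODE exons cut at that start, 267 bases are shared, 17.8% of the 1501 Naa80 exon bases left. Hyal3 and Hyal1 share 159 bases, 8.2% of the Hyal3 exons.

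The deposited values do not settle which models were used. Each FPKM value implies a gene length when divided into its reads and the reads of the table. For Hyal1 it was 3776 bases, against 3777 bases of merged GENCODE exons, so the shared stretch counts toward its length. For Naa80 it was 1512 bases, under the 3154 of the merged GENCODE exons. It was near the 1501 GENCODE exon bases left after the cut at the RefSeq start. How reads in the shared stretch were assigned is not given in the sources used here.

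**Figure D2:**
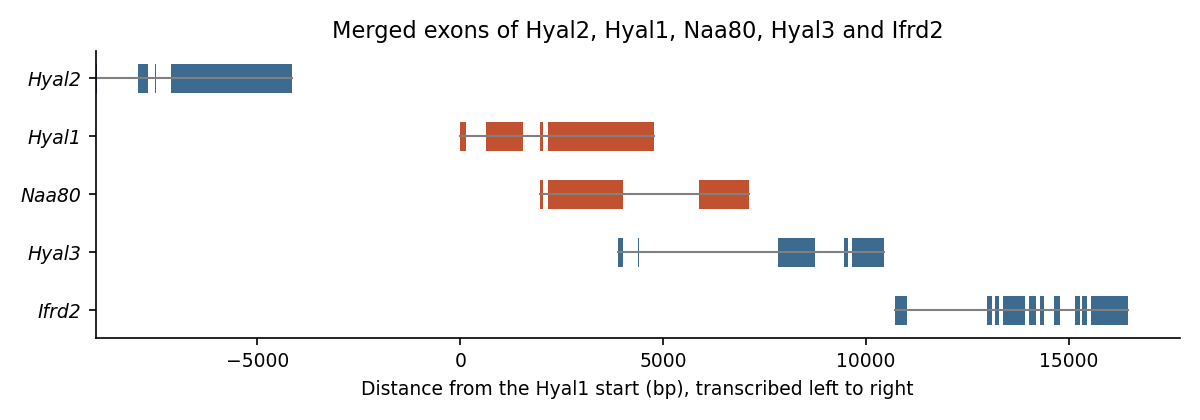
Merged GENCODE vM21 exons (boxes) of Hyal2, Hyal1, Naa80, Hyal3 and Ifrd2, drawn to scale by distance in bases from the Hyal1 start; all 5 genes are transcribed from left to right. The Naa80 exons begin 1960 bases after the Hyal1 start and overlap the last 2 Hyal1 exons, and Hyal3 begins 3891 bases after it.

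Naa80 was at 14.8, 14.9 and 15.5 FPKM with PBS and at 22.0, 19.9 and 21.7 FPKM with rPPAA18C6@Dox. No treated library reached down to the PBS range, which held for 12.6% of all tested genes. Naa80 rose by a log2 fold change of 0.47 (SE 0.0413, limma adjusted p = 0.000104). Mean reads went from 837 to 1176 for Naa80, a rise of 339, and from 1067 to 1790 for Hyal1, a rise of 723. Hyal1 reads per Naa80 read were 1.15, 1.41 and 1.27 in PBS libraries and 1.54, 1.59 and 1.438 in treated libraries. This ratio rests on the Hyal1 values for which the set was taken and is a description only. The part of shared reads in either difference was not tested, so the Naa80 call cannot be taken as independent of Hyal1.

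Of the 14 tested neighbours of Hyal1, 2 rose, none fell and 12 did not pass the test. Naa80 was the first, and Sema3b, a secreted semaphorin, stood at 29.6 ± 0.156 FPKM with PBS and 32.4 ± 0.275 FPKM when treated (log2 fold change 0.13, SE 0.0254, adjusted p = 0.0126; 0.0501 without PBS replicate 2). The 12 others (Tmem115, Cyb561d2, Nprl2, Rassf1, Tusc2, Ifrd2, Lsmem2, Gnai2, Slc38a3, Sema3f, Rbm5 and Rbm6) had estimates from -0.12 (Sema3f) to 0.11 (Lsmem2), and the median over all 14 was -0.01, equal at this rounding to that of all tested genes. Ifrd2, directly after Hyal3, was at 28.9 ± 2.28 and 27.4 ± 0.416 FPKM (-0.07, adjusted p = 0.393), and Tusc2, directly before Hyal2, at 14.4 ± 1.03 and 14.4 ± 1.47 FPKM (-0.00473, adjusted p = 0.9746). Zmynd10 stayed under the filter, with 5 to 19 reads per library, and Gnat1 was not analysed here. In the background, 9.93% of all tested genes passed the same test, 4.66% as higher and 5.26% as lower.

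**Figure D3:**
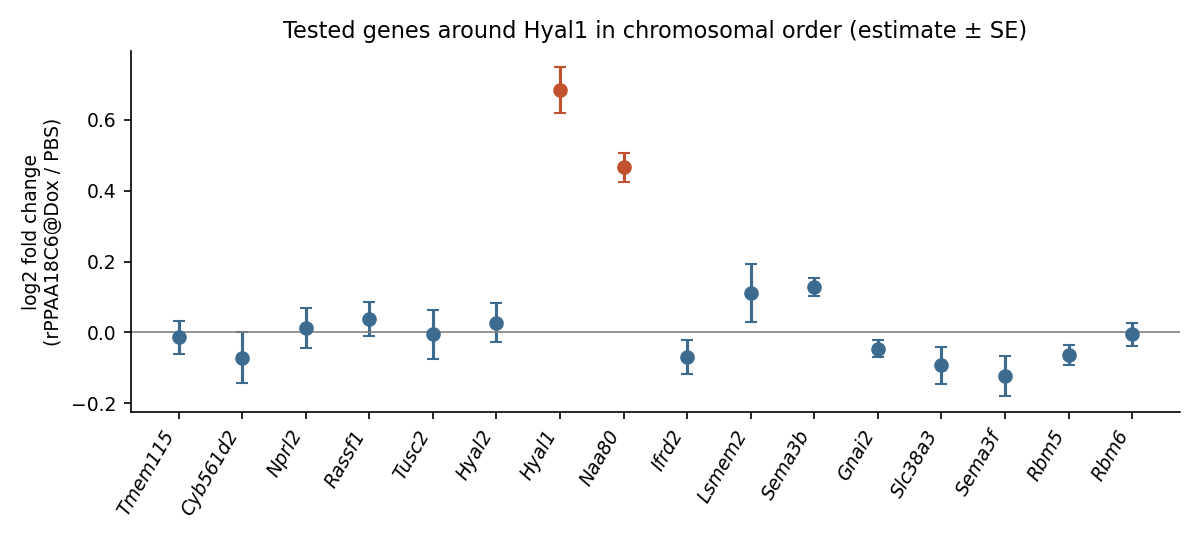
log2 fold change (rPPAA18C6@Dox over PBS, vertical axis) of the tested genes around Hyal1 in chromosomal order; points are limma estimates and bars their SE, from 3 libraries per group. Hyal1 (0.68) and Naa80 (0.47), in red, stand above the others, which lie between -0.12 and 0.13.

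By the root mean square difference from Hyal1 over the 6 libraries, on log2(FPKM + 1) with each gene set to 0 at its own PBS mean, the most similar of 10190 named genes was Fbln5, an elastic fibre protein (0.0407). The nuclear receptor Nr4a3 (0.0755), the microtubule minus-end binder Camsap3 (0.0856), the clotting factor carrier Vwf (0.0865) and the ubiquitin ligase Nedd4l (0.0945) came next. Fbln5 went from 4.85 ± 0.397 to 8.09 ± 0.323 FPKM and Nr4a3 from 17.2 ± 0.939 to 27.4 ± 1.01 FPKM. Naa80 ranked 26 (0.176). Hyal1 itself lay 0.491 from no change by the same measure. The comparison covers 6 libraries in 2 groups. It ranks genes by the Hyal1 values for which the set was taken, so the rise of the closest genes follows from that choice. The ranking is a description only.

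Among the synthases, Has3, which makes hyaluronan chains of shorter length, was at the edge of detection with 60, 22 and 50 reads in PBS libraries (0.259, 0.0958 and 0.220 FPKM). The treated libraries had 40, 34 and 33 reads (0.175, 0.148 and 0.144 FPKM), all inside the PBS range. With no filter on low values its log2 fold change was -0.04 (SE 0.0514, limma adjusted p = 0.713), and the authors' deposited table gives a p-value of 0.423. A difference in Has3 was not detectable at this depth. Its exons share 352 bases with Chtf8 on the other strand, which was not analysed here.

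Cd44, the main surface receptor of hyaluronan, was the most abundant gene of the set per unit of length. It stood at 90.7, 94.5 and 92.5 FPKM with PBS and 105.7, 104.6 and 103.8 FPKM with rPPAA18C6@Dox, with no overlap between groups, as in 31.3% of all tested genes (12.6% higher). It rose by 13.1% between means, a log2 fold change of 0.18 (SE 0.0243, limma adjusted p = 0.00209, 95% interval 8.80% to 17.3% higher). Between 19477 and 22413 reads per library stand behind these values. The call held in all 13 alternatives (adjusted p 7.15e-07 to 0.0163), and the authors' deposited table gives a p-value of 2.22e-14.

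Hmmr was at 31.1, 31.6 and 32.5 FPKM with PBS and 29.97, 29.1 and 29.97 FPKM with rPPAA18C6@Dox. Every treated library lay below every PBS library, as in 18.7% of all tested genes, and the gap was small. The log2 fold change of -0.09 (SE 0.0285) missed the threshold with limma (adjusted p = 0.0706, 0.0610 to 0.215 over the alternatives), and the authors' deposited table gives a p-value of 0.0295, with the test not stated. The 95% interval ran from -0.156 to -0.0285 on the log2 scale before adjustment over all genes.

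Of the 3 tested members other than Hyal1, 1 passed the test (Cd44, higher), where 9.93% of all tested genes did. The set was taken with this contrast known, so nothing is read from that count. In order of PBS level per length, Cd44 came first, then Hmmr, Hyal2, Hyal1, Has3 and Hyal3. Only Has3 and Hyal3, which were neighbours in this order, overlapped in their PBS values (0.0958 to 0.259 and 0.118 to 0.164 FPKM). In treated libraries Hyal1 (12.5 to 13.6 FPKM) stood before Hyal2 (11.1 to 11.6 FPKM), and Hyal3 and Has3 again overlapped.

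Around this core, 6 lists of pathway genes held 54 tested genes, of which 6 rose and 11 fell. That is 31.5%, against 9.93% of all tested genes. The lists were chosen with earlier results of these data known, so nothing is read from that share. With a filter at 5 FPKM, 18 of 46 list genes passed, and 1035 of all 7870 genes did. Without PBS replicate 3, 10 of the 54 passed, 5 in each direction. The split was 7 higher and 7 lower without rPPAA18C6@Dox replicate 2, and 9 higher and 10 lower by voom. The median of each list lay between -0.07 and 0.09 on the log2 scale, and that of all tested genes at -0.01.

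**Figure D4:**
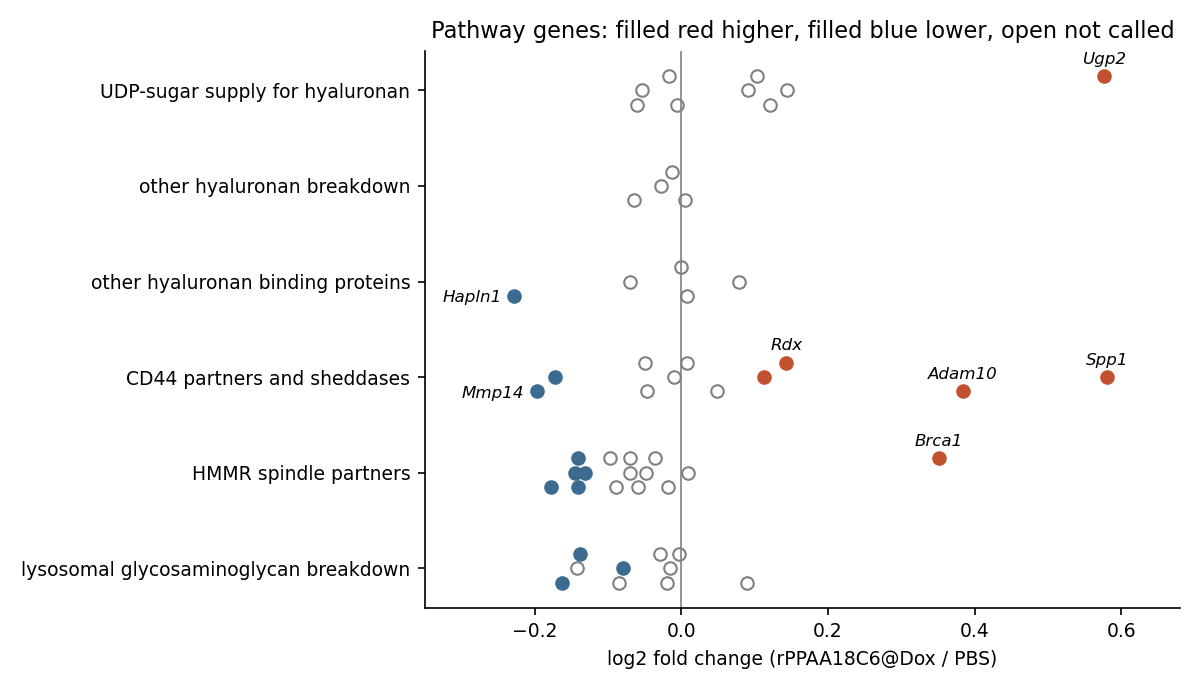
log2 fold change (horizontal axis, rPPAA18C6@Dox over PBS) of each tested gene of 6 pathway lists, 3 libraries per group; filled points passed limma at an adjusted p of 0.05, red higher and blue lower, and vertical offsets only separate points. Ugp2 and Spp1 lie farthest right, near 0.58, and Hapln1 farthest left, at -0.23.

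In the supply of UDP-sugars, the substrates of the synthases, 1 of 9 tested genes rose and none fell. Of all tested genes, 4.66% rose and 5.26% fell. The list median was 0.09. By voom on recovered reads 4 of the 9 passed. Ugp2, which makes UDP-glucose, was at 112.2, 111 and 116.6 FPKM with PBS and 172.5, 161.4 and 174.6 FPKM with rPPAA18C6@Dox. The groups did not overlap, as in 12.6% of all tested genes in that direction. Ugp2 rose by a log2 fold change of 0.58 (SE 0.0333, limma adjusted p = 8.4e-06). Ugdh, which oxidises UDP-glucose to UDP-glucuronic acid, was at 21.7 ± 0.4999 and 23.7 ± 0.952 FPKM (0.12, SE 0.0355, adjusted p = 0.0602), and it passed in 3 of 13 alternatives. On the N-acetylglucosamine side, Gfpt1, the first enzyme of the hexosamine pathway, had an estimate of 0.09 (adjusted p = 0.0957), Uap1, which makes UDP-N-acetylglucosamine, 0.14 (0.0704), Pgm3 -0.02 and Gnpnat1 -0.01.

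In the list of other enzymes of hyaluronan breakdown, 0 of 4 tested genes passed limma, where 9.93% of all tested genes did. An unadjusted p under 0.05 was found in 0, and 0 were called by voom. Hexa, a lysosomal enzyme that trims the fragments Hyal1 leaves, was at 173 ± 1.40 FPKM with PBS and 174 ± 2.74 FPKM with treatment. Gusb, a lysosomal glucuronidase, had an estimate of -0.03 (adjusted p = 0.579), and Cemip2, a surface protein implicated in hyaluronan turnover, -0.07 (adjusted p = 0.537). Cemip had at most 7 reads in any library.

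Of 10 tested lysosomal enzymes for other glycosaminoglycans, 3 fell and none rose (median -0.05), where 5.26% and 4.66% of all tested genes did. Sgsh, a sulfamidase, fell, with 10.1 ± 0.158 FPKM under PBS and 8.88 ± 0.204 FPKM under treatment (log2 fold change -0.16, SE 0.0351, adjusted p = 0.0190). Glb1, the lysosomal beta-galactosidase, fell by 0.14 on the log2 scale (SE 0.0279, adjusted p = 0.0132) and Hgsnat, an acetyltransferase of heparan sulfate breakdown, by 0.08 (SE 0.0212, adjusted p = 0.0430). These calls were lost in 4, 3 and 10 of 13 alternatives (adjusted p up to 0.0610, 0.0558 and 0.154); for Sgsh and Glb1 these were fits with 1 library left out.

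Of the other hyaluronan-binding proteins, 5 of 22 were tested, 1 fell and none rose, where 5.26% and 4.66% of all tested genes did. Hapln1, the link protein that fixes proteoglycans to hyaluronan, was at 8.16, 8.10 and 7.82 FPKM with PBS and at 6.38, 6.72 and 7.02 FPKM with rPPAA18C6@Dox. The groups did not overlap, as in 18.7% of all tested genes in that direction. Hapln1 fell by 0.23 on the log2 scale (SE 0.0424, limma adjusted p = 0.00897). The proteoglycan Bcan (-0.000773), the inflammation-linked Tnfaip6 (0.08), Habp4 (0.01) and Tlr4 (-0.07, adjusted p = 0.343) did not pass. Vcan, a large hyaluronan-binding proteoglycan, was below the filter with 26 to 53 reads per library.

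Of 11 tested partners and sheddases of CD44, 4 rose and 2 fell, where 4.66% and 5.26% of all tested genes did. The list median was 0.01. Spp1 (osteopontin), a secreted ligand of CD44, was at 15.2, 14.9 and 15.6 FPKM with PBS and at 25.0, 21.1 and 24.0 FPKM with rPPAA18C6@Dox, and rose by 0.58 (SE 0.0544, adjusted p = 0.000143). Adam10, a protease that sheds the outer part of CD44, was at 46.6, 47.4 and 47.4 FPKM with PBS and at 62.0, 60.6 and 62.9 FPKM when treated, and rose by 0.38 (SE 0.0254, adjusted p = 1.7e-05). Mmp14, a membrane metalloproteinase that also cuts CD44, went the other way, from 94.8, 92.7 and 91.7 FPKM to 80.96, 80.65 and 81.4 FPKM (-0.20, SE 0.0234, adjusted p = 0.000843). In all 3 genes the groups were fully apart, as in 31.3% of all tested genes.

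Of the ERM proteins that tie CD44 to actin, radixin (Rdx) rose by 0.14 (SE 0.0245, limma adjusted p = 0.00632) and ezrin (Ezr) by 0.11 (SE 0.0251, adjusted p = 0.0209). Moesin (Msn), the most abundant of them per length at 173 ± 0.471 and 167 ± 1.66 FPKM, had an estimate of -0.05 (adjusted p = 0.170). Vav2, a guanine nucleotide exchange factor, fell by 0.17 (SE 0.0443, adjusted p = 0.0376). The Ezr call was lost in 4 of 13 alternatives (adjusted p up to 0.0752) and the Vav2 call in 8 of 12 (up to 0.113). Adam17, another sheddase, had an estimate of -0.05 (adjusted p = 0.340).

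**Figure D5:**
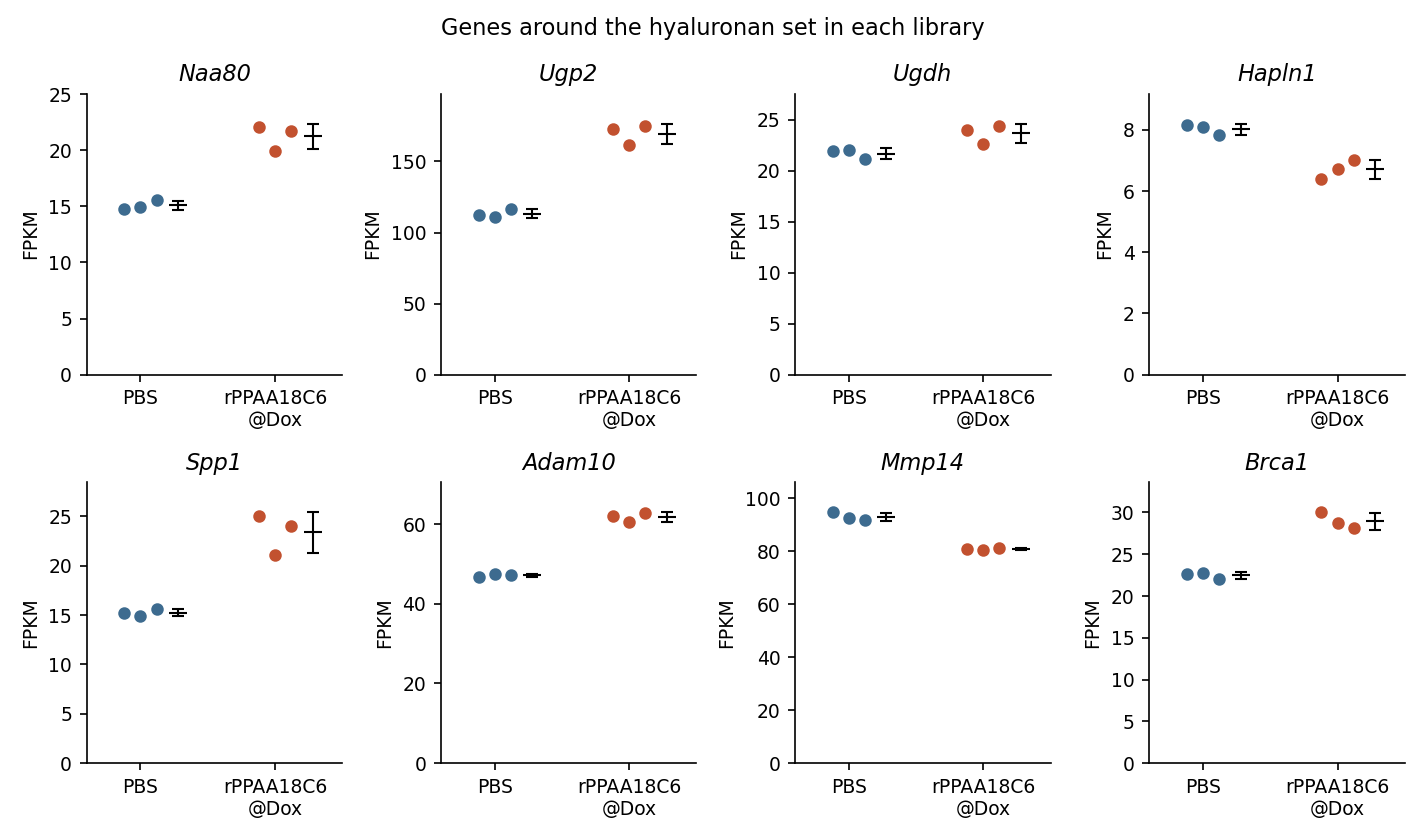
FPKM (vertical axis, from 0) of Naa80, Ugp2, Ugdh, Hapln1, Spp1, Adam10, Mmp14 and Brca1 in 3 PBS and 3 rPPAA18C6@Dox libraries; points are libraries, ordered by replicate number, and bars give the mean ± SD. No gene shown overlaps between groups, which held for 31.3% of all tested genes. Hapln1 and Mmp14 are lower with treatment and the others higher. Ugdh did not pass the test.

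The last list joined spindle partners of RHAMM with other genes of mitosis and proliferation, among them Ccnb1, Top2a and Mki67. Of its 15 tested genes, 5 fell and 1 rose, where 5.26% and 4.66% of all tested genes did. Negative estimates were found in 13. The share of negative estimates over all tested genes is not given here, so nothing is read from that count. The list median was -0.07, where that of all tested genes was -0.01. Hmmr, at -0.09, did not pass the test. The mitotic kinases Aurka (-0.15, SE 0.0264, limma adjusted p = 0.00801), Plk1 (-0.14, SE 0.0279, adjusted p = 0.0126) and Cdk1 (-0.13, SE 0.0249, adjusted p = 0.00964) fell. Tpx2, which activates Aurka on the spindle, had an estimate of -0.04 (adjusted p = 0.404). Numa1, a spindle pole protein, and Fam83d, which acts with RHAMM at the spindle in human cells, fell by 0.14 and 0.18, and lost their calls in 8 and 6 of 13 alternatives (adjusted p up to 0.142 and 0.129).

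The gene of that list that rose was Brca1, a ubiquitin ligase of DNA repair that also acts on RHAMM in human cells. It was at 22.6, 22.7 and 22.0 FPKM with PBS and at 30.04, 28.7 and 28.1 FPKM with rPPAA18C6@Dox, a log2 fold change of 0.35 (SE 0.0323, limma adjusted p = 0.000131). Its groups were fully apart, as in 12.6% of all tested genes in that direction. Its partner in the ligase, Bard1, had a negative estimate (-0.10, SE 0.0469, adjusted p = 0.224).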

How the data were processed

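RNA of 6 libraries of B16F10 cells was sequenced from a stranded mRNA kit, per the labels' protocols. The deposited table holds 1 value per gene and library, read here as FPKM from the values (columns sum to 385203 to 392470 and follow whole-read steps), since the header names no unit. It also holds a p-value per gene from the authors' own comparison, test not stated per the file headers. Per the submitters' processing notes the genome build was mm9. The aligner and counter are not stated, nor is whether strand was used. Gene models and sequences come from GRCm38 and were matched by symbol.

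The 3 columns named with the letter P were assigned to rPPAA18C6@Dox by elimination and number, and every direction reported depends on that assignment. Whole reads were recovered for all 15726 genes within a tolerance of 0.01 reads. Log2(FPKM + 1) values were tested, two-sided and unpaired, by limma 3.58.1 (R 4.3.3) with trended variance and Benjamini-Hochberg adjustment over the 10680 genes with a mean of at least 1 FPKM in either group and a threshold of 0.05. It was checked on simulated libraries. Libraries of a group differed by more than sampling noise (mean chi-square per gene 2.38 to 3.98, where noise gives about 1). The labels give no batch.

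The members and the gene lists were chosen with earlier results of these data known. Genes named were the 8 members, all neighbours of Hyal1 in the list, every called gene of each pathway list (with fewer than 2 calls, the smallest p up to 2) and the 5 genes most like Hyal1. Other list genes are named, after their values were seen, for their role in the pathway. Alternatives were a pseudocount of 0.1, no filter, a filter at 5 FPKM, quantile normalization, no trend, voom on recovered reads, a replicate block, and each library left out. The values of 1 gene of the breakdown list are not reported here.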

Additional observations from a re-analysis of the deposited data

How the results depend on the processing

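Among 13 alternatives, the log2 fold change of Hyal1 ranged from 0.61 (without PBS replicate 1) to 0.77 (voom on recovered reads). The voom value comes from log2 reads scaled to depth and not from log2(FPKM + 1). Cd44 passed in all of them, Hmmr in none, and Hyal2 in none, its sign turning without PBS replicate 3 (-0.03). The number of called members other than Hyal1 stayed at 1. Of 25 genes named by the rule that passed, Hyal1 aside and Cd68 not among them, 17 passed in every alternative that tested them.

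Across all genes the 1060 calls became 681 with no filter on low values, 600 to 749 with 1 library left out and 1547 with voom. The share called higher was 498 of 1060, against 551 of 1050 with quantile normalization and 852 of 1547 with voom. The 17 called pathway genes became 10 to 14 with 1 library left out, and 10 only without PBS replicate 3; fewer libraries were then fitted.

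Same-numbered libraries did not deviate together: the correlations of their deviations across 10680 genes were -0.00238, 0.0549 and -0.0210 for numbers 1 to 3. The values therefore give no sign of pairing by number, but such correlations cannot exclude that cultures were handled in pairs. With the replicate block 825 genes, 15 pathway genes and 1 member other than Hyal1 passed, and not every library correlated best with its own number. Depth limits Hyal3 (8 to 26 reads) and Has3 (22 to 60 reads), for which no difference could be shown.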
